A study of Mus musculus with 2 samples.

Results

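The renin-angiotensin system genes described here are 10 of the 55536 annotated genes of the series: Agt, Ren1, Ace, Atp6ap2, Enpep, Lnpep, Agtr1a, Agtr1b, Agtr2 and Mas1. They were chosen by name, with earlier results of these data known. All 10 were found by matching the gene symbol to the identifiers of the gene tables. Total RNA was sequenced from adrenal glands of adult male mice aged 8 to 10 months of a cross labelled 5xFAD X Cast, where 5xFAD mice carry human amyloid-disease transgenes driven by the neuronal Thy1 promoter and CAST mice descend from wild-caught animals. There was 1 group of 2 libraries, labelled biological replicates 1 and 2, each made from 300 ng of RNA reduced of ribosomal RNA, with strand kept and ERCC spike-in RNA added. Each library had a biosample of its own but both had the same donor entry, so the 2 libraries may or may not stand for different animals. No other cross or strain was analysed here, so every value describes this 1 labelled cross. That label does not state whether the animals carried the transgenes. How CAST alleles affected counting against the mm10 reference was not analysed here.

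Angiotensinogen, the product of Agt, is cut by the protease renin to angiotensin I, which angiotensin-converting enzyme shortens to angiotensin II. Angiotensin II acts on AT1 receptors of zona glomerulosa cells, the outermost cells of the adrenal cortex, and drives aldosterone synthesis there through Gq, phospholipase C and calcium. The liver supplies most angiotensinogen and the kidney most renin, while rodents carry paired AT1 receptor genes, Agtr1a and Agtr1b, and the AT2 receptor gene Agtr2 is known in the adrenal gland and in fetal tissue.

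The libraries held 29204658 (replicate 1) and 26322473 (replicate 2) expected counts over annotated genes, and spike-ins with phiX174 held 0.469% and 0.504% of all counts. Markers of the labelled tissue were present: 7 of 7 zona glomerulosa, 5 of 5 zona fasciculata and 7 of 7 chromaffin markers were detected, led by Kcnk3, Hsd3b1 and Chga. The libraries differed in other cell types, since all 6 white adipocyte markers were lower in replicate 2 (summed TPM of 510.2 and 311.0, replicates 1 and 2), while all 7 chromaffin markers were higher (2005 and 2318). The summed TPM of glomerulosa markers (6 of 7 lower in replicate 2) was 1193 and 1076, with 505.1 and 473.8 from Kcnk3. That of fasciculata markers was 8340.5 and 8515, of which Hsd3b1 alone held 4596 and 4695. All 7 capsule and fibroblast markers (summed TPM of 134.9 and 140.1) and all 6 macrophage markers (242.9 and 168.6) were detected too. In whole gland, fewer cells of a type and less RNA per cell cannot be told apart.

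A gene counted as detected when both libraries reached 1 TPM, which 8 of the 10 genes did and Agt and Mas1 did not. For comparison, 25.5% of all annotated genes and 56.2% of protein-coding genes passed the same limit. The detected genes spanned a wide range of levels, with Agtr1a first and Ren1 last, as the plot of levels by library shows. TPM, reads per transcript length scaled to the same total in each library, can be compared between genes. It is given below as each library's value and as mean ± SD (n = 2).

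**Figure D1:**
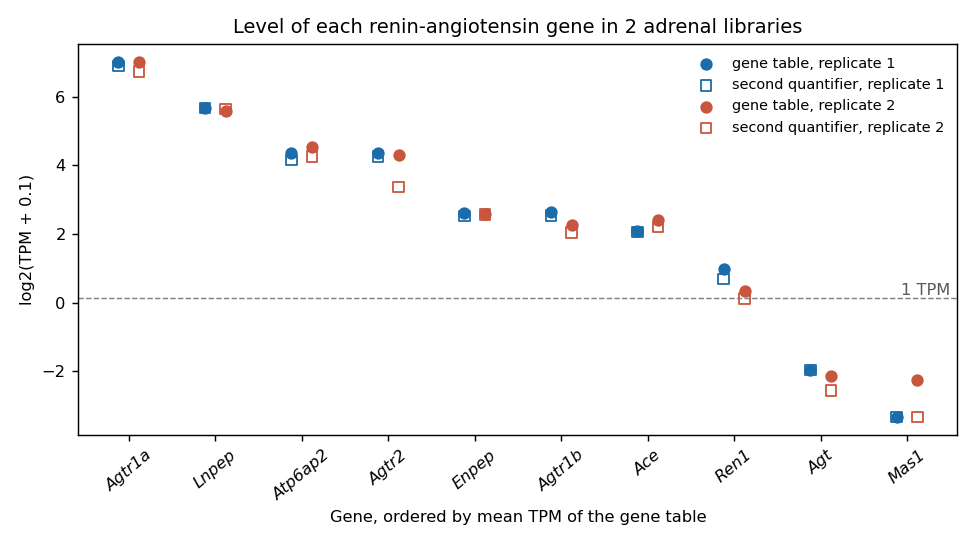
Level of each of the 10 genes as log2(TPM + 0.1), with genes ordered by mean TPM; filled circles are the gene table and open squares the second quantifier, blue for replicate 1 and red for replicate 2, and the dashed line marks 1 TPM. Agtr1a lies near 129 TPM in both libraries, Ren1 lies just above the line in the gene table, Agt and Mas1 lie below it, and the open square of Agtr2 in replicate 2 lies apart from the other Agtr2 points.

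Of the receptor genes, Agtr1a and Agtr1b are close in sequence, so how far reads could tell them apart was examined first. The coding sequences of the paralogs Agtr1a and Agtr1b, both 1077 bases without the stop codon, were identical at 978 positions, or 90.8%. They differed at 99, while each was 47.6% and 47.8% identical to Agtr2 in a global alignment, and Agtr1a was 45.3% identical to Mas1. The longest run without a difference was 66 bases, and none of the 977 windows of 101 bases (the read length to which the deposited effective lengths correspond) in the Agtr1a coding sequence occurred in that of Agtr1b. The stretch of 90 coding bases with the most differences, 20 in number, is shown from base 973 to 1062 of each coding sequence, which encodes part of the receptor's intracellular tail, with differing bases in capitals. It was read from the GENCODE M21 transcripts (GRCm38) at chr13:30381926-30382015, plus strand, and chr3:20315379-20315468, minus strand.
Agtr1a-201: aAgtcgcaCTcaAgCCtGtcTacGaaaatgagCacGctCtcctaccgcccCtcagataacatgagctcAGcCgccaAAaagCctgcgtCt
Agtr1b-201: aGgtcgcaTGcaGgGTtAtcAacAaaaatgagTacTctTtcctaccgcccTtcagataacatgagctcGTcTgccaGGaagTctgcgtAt

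Few reads were ambiguous between the paralogs. The posterior SD of the gene count, which measures how far reads moved between possible sources, was 0.40 reads for both Agtr1a and Agtr1b in replicate 1. It was 0 for both genes in replicate 2.

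Agtr1a (ENSMUSG00000049115.15, chr13:30336441-30382867, plus strand, mm10), the main AT1 receptor gene of rodents, had the highest level of the 10 genes. It was at 128.4 TPM in replicate 1 and 129.2 TPM in replicate 2, from 6531 and 5610 expected counts. Its level exceeded that of 98.5% of protein-coding genes. The second quantifier, a separate transcript table made from the reads directly, gave 118.5 and 105.8 TPM. Per scaled count, Agtr1a in replicate 2 differed from replicate 1 by -0.08 ± 0.03 on the log2 scale (counting error), less than the 0.14 SD that counting and the dispersion at that abundance gave.

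Agtr1b (ENSMUSG00000054988.9, chr3:20314473-20367177, minus strand) encodes the other AT1 receptor. It was at 6.20 and 4.74 TPM, from 356 and 248 counts, and its deposited TPM intervals, 5.50 to 6.85 and 4.13 to 5.33, did not overlap. Agtr1b was lower in replicate 2 in both quantifiers, the second giving 5.72 and 4.03 TPM. The log2 ratio of its counts was -0.38 ± 0.12, beyond the 0.24 SD from counting and dispersion. Of the glomerulosa markers 6 of 7 were also lower in replicate 2, with a median log2 ratio of -0.12. All 6 white adipocyte and 4 of 6 macrophage markers were lower too, with medians of -0.86 and -0.35, while all 7 chromaffin markers were higher. The part of any cell type in the Agtr1b values was not tested.

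In TPM, Agtr1a was 20.7 times as high as Agtr1b in replicate 1 and 27.2 times in replicate 2, or 24.0 ± 4.62 times (SD, n = 2). The gap was far larger than the spread of either gene between the libraries, and the second quantifier gave 23.5 ± 3.92 times. With only the main transcript of each gene (the lowest-numbered, such as Agtr1a-201), a comparison chosen after seeing the data, it was 19.7 ± 1.85 times.

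Agtr2 (ENSMUSG00000068122.10, chrX:21484544-21489164, plus strand) encodes the AT2 receptor, which couples differently from AT1 and is known to oppose several of its actions. It was at 20.6 and 19.8 TPM, from 916 and 857 counts, and its count ratio of 0.05 ± 0.07 lay within the 0.17 SD from counting and dispersion. The second quantifier gave 19.1 TPM in replicate 1 but 10.2 TPM in replicate 2. Agtr2 was the only 1 of the 8 detected genes whose quantifiers differed by over 1.5-fold in a library, a share read beside the 10.6% of 14746 genes that did so.

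That difference lay in a single short transcript. Agtr2-201, the coding transcript of 3283 bases, held 846.8 and 802.7 of the gene's counts, and Agtr2-202, a processed transcript of 314 bases, held 69.2 and 54.3. Only 43 bases of Agtr2-202 lie outside the exons of Agtr2-201, at chrX:21484722-21484764. They are the bases by which reads can place it, and the first 30 of them, from the GENCODE M21 transcripts at chrX:21484722-21484751, plus strand, read as follows.
Agtr2-202: gactagggaaggggaacatacagcagtaaa

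TPM divides counts by an effective length, which was 214 bases for Agtr2-202 and 3183 for Agtr2-201 in the gene-table quantifier. So 7.55% and 6.33% of the counts became 54.9% and 50.2% of the gene's TPM, and the short form led Agtr2 in both libraries. The coding form alone was at 9.29 and 9.86 TPM. In the second quantifier Agtr2-202 had 57.0% of the gene's TPM in replicate 1 and 14.6% in replicate 2, from 42.2 and 4.67 counts, while Agtr2-201 was at 8.20 and 8.72 TPM. The coding transcript thus had close values in all 4 readings, and the gene's TPM did not.

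Agtr1a was 6.39 ± 0.208 times as high as Agtr2 in TPM of the gene table (6.24 and 6.53), 8.29 ± 2.94 times in the second quantifier and 10.7 ± 0.822 times over the main transcripts only, also chosen after seeing the data. Of the summed TPM of the 3 angiotensin receptor genes, Agtr1a held 82.7% and 84.1%, Agtr2 13.3% and 12.9%, and Agtr1b 4.00% and 3.08%. Over the main transcripts only, Agtr1a held 87.5% and 87.2%, Agtr2 7.78% and 8.65%, and Agtr1b 4.76% and 4.16%. The order of the 3 receptor genes was thus Agtr1a, Agtr2 and Agtr1b in every reading.

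Mas1 (ENSMUSG00000068037.11, chr17:12841079-12868143, minus strand) encodes a receptor for the shorter peptide angiotensin-(1-7). It had 0 counts in replicate 1 and 1 in replicate 2, listed as 0 and 0.11 TPM, and 0 in both libraries in the second quantifier. For the count of 0 in replicate 1, a limit of 3 counts (counting error only) is worth 0.0455 TPM over its main transcript. The single count of replicate 2, with an exact Poisson 95% interval of 0.0253 to 5.57 counts, was assigned to the shorter transcript Mas1-207, which gave its 0.11 TPM. The deposited TPM interval of Mas1, 0.148 to 0.788 and 0.219 to 1.01, lay above its own TPM and was not used. The opposite strand of Mas1 carries Airn, an imprinted noncoding RNA gene, at 137 and 102 counts, so Mas1 counts were near 0 beside a transcribed antisense partner.

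Upstream of the receptors, RNA of the substrate gene was nearly missing from the gland, and the protein was not measured. Agt (ENSMUSG00000031980.9, chr8:124556534-124569706, minus strand) had 8 counts in replicate 1 and 6 in replicate 2, with exact Poisson 95% intervals of 3.45 to 15.8 and 2.20 to 13.1. These are 0.16 and 0.13 TPM, and the second quantifier gave 0.158 and 0.0709 TPM. The bases that encode angiotensin I, the peptide that renin releases, are bases 88 to 117 of the Agt coding sequence, at chr8:124564450-124564479, minus strand (GENCODE M21, GRCm38), shown to mark where in the precursor the hormone lies.
Agt-201: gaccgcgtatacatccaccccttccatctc

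Liver and fat are sources of angiotensinogen, and the markers of both were measured beside it. None of the 6 liver markers was detected and their summed TPM was 1.70 and 1.36, with none at 0 in both libraries, while all 6 adipocyte markers were detected, led by Fabp4 and Plin1. Agt itself was at 0.145 ± 0.0212 TPM, and the part of these cells in its few counts was not tested.

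Ren1 (ENSMUSG00000070645.5, chr1:133350510-133360325, plus strand), the renin gene, was present at a low level. It was at 1.88 and 1.18 TPM, from 77 and 45 counts with exact Poisson 95% intervals of 60.8 to 96.2 and 32.8 to 60.2. Replicate 2 was lower, with a log2 ratio of -0.63 ± 0.27, beyond the 0.44 SD from counting and dispersion, but the deposited TPM intervals of 1.55 to 3.92 and 0.906 to 2.27 overlapped. The second quantifier gave 1.52 and 0.995 TPM, so there Ren1 fell just short of the limit in replicate 2. Its paralog Ren2 was sought by name, but no gene of that symbol was matched, so it has no value here.

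Because kidney is rich in renin, 11 kidney markers were measured beside Ren1. Only 1 was detected, Aqp2, the collecting duct water channel gene, at 1.69 and 1.01 TPM, and Slc12a1 and Kap were among the markers at 0 in both libraries. The summed TPM of the kidney list was 2.40 and 1.40, lower in replicate 2 as Ren1 was, and its part in the Ren1 values was not tested. Summed smooth muscle and pericyte markers, the lineage of renin cells in kidney vessels, were at 74.9 and 62.1 TPM, and their part was not tested either.

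Atp6ap2 (ENSMUSG00000031007.2, chrX:12587801-12617049, plus strand) encodes the (pro)renin receptor, which is also an accessory subunit of the vacuolar proton pump. It was at 20.6 and 22.9 TPM, from 1257 and 1274 counts, and at 17.7 and 19.1 TPM in the second quantifier. Replicate 2 was higher by 0.16 ± 0.06 on the log2 scale, at the edge of the 0.16 SD from counting and dispersion.

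Ace (ENSMUSG00000020681.14, chr11:105967945-105989964, plus strand) encodes angiotensin-converting enzyme, a peptidase of endothelial cells. It was at 4.13 and 5.17 TPM, from 534 and 578 counts, and at 4.08 and 4.52 TPM in the second quantifier. Replicate 2 was higher, with a log2 ratio of 0.26 ± 0.09, beyond the 0.19 SD from counting and dispersion. All 8 endothelial markers were detected, led by Plvap and Egfl7, with 3 higher and 5 lower in replicate 2 and a summed TPM of 348.4 and 359.2. All 7 chromaffin markers were higher in replicate 2, as Ace was, and the part of either cell type in the Ace values was not tested.

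The Ace locus has a second start site inside the gene, from which the testis form is made. The long somatic transcript Ace-201 held 84.0% and 78.6% of the gene's TPM (477.9 and 499.6 counts), but 65.9% and 60.1% in the second quantifier. Ace-203, a coding transcript of 3649 bases that also starts inside the gene, held 8.36% and 7.87% (35.1 and 36.9 counts). In the second quantifier Ace-203 held 22.3% and 29.6%, from 117.7 and 155.7 counts, so its share depended on the quantifier. Ace-202, the testis form of 2418 bases, of which 196 lie in no other Ace transcript, was assigned 20.99 counts with a posterior SD of 10.9 in replicate 1 and 41.5 with a posterior SD of 19.6 in replicate 2. The second quantifier gave it 0 and 34.8 counts, so the testis form was not set apart from 0 in replicate 1. In replicate 2 both quantifiers gave it counts, but its posterior SD was large there too. The 100 bases before each start site, from RefSeq on GRCm38.p6, are shown because the start sites give the 2 forms, with a TATAAA match in capitals (on the other strand, so read as TTTATA). They are chr11:105967848-105967947 for the somatic and chr11:105975089-105975188 for the testis form, both on the plus strand.
Ace somatic start: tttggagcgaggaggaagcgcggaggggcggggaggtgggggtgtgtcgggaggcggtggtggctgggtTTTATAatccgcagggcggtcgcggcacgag
Ace testis start: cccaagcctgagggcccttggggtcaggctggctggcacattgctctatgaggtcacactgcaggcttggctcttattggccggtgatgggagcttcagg

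Over the full window from 250 bases before to 50 after the start, the somatic Ace window was 69.7% G or C with 29 CG pairs and the testis window 59.0% with 2, beside medians of 52.7% and 7 over 32851 windows. RefSeq windows were found for 9 of the 10 genes, 10 windows in all, and Agtr1a had none. TATAAA was searched on both strands and was in 5 of the 10 windows, those of somatic Ace, Agt, Agtr1b, Enpep and Ren1, beside 13.6% of all windows. AAGGTCA, the sequence bound by the adrenal factor SF-1, was in 0 of the 10, beside 4.72% of all. A match or its lack describes letters only.

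Enpep (ENSMUSG00000028024.14, chr3:129269175-129332720, minus strand), glutamyl aminopeptidase, trims angiotensin II to angiotensin III. It was at 6.02 and 5.95 TPM, from 615 and 511 counts, and at 5.68 and 5.82 TPM in the second quantifier. Enpep had the smallest SD for its level of the detected genes except Agtr1a, and its count ratio of -0.13 ± 0.09 lay within the 0.19 SD from counting and dispersion. Its coding transcript Enpep-201 held 74.4% and 69.3% of its TPM, and the retained-intron form Enpep-203 held 25.6% and 19.4%. In the second quantifier Enpep-201 held 56.7% and 54.9%, and Enpep-203 held 22.4% and 20.5%. Enpep-205, annotated for nonsense-mediated decay, held 0% and 2.42% in the gene-table quantifier but 20.5% and 13.2% in the second.

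Lnpep (ENSMUSG00000023845.7, chr17:17521410-17625050, minus strand) encodes leucyl and cystinyl aminopeptidase, the binding site of angiotensin IV, which also travels with glucose transporter vesicles. It was second to Agtr1a at 50.7 and 47.9 TPM, from 11494 and 9497 counts, the most counts of the 10 genes. Its count ratio was -0.13 ± 0.02, within the 0.15 SD. The coding transcript Lnpep-201, 12052 bases long, held 87.2% and 88.2% of its counts but 57.7% and 57.2% of its TPM. Alone it was at 29.3 and 27.4 TPM. In the second quantifier Lnpep-201 held 49.0% and 46.3% of the TPM, at 24.9 and 23.0 TPM. There Lnpep-203 held 22.1% and 16.3%, and Lnpep-202 held 11.9% and 23.0%. Lnpep was 8.24 ± 0.265 times as high as Enpep in TPM.

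**Figure D2:**
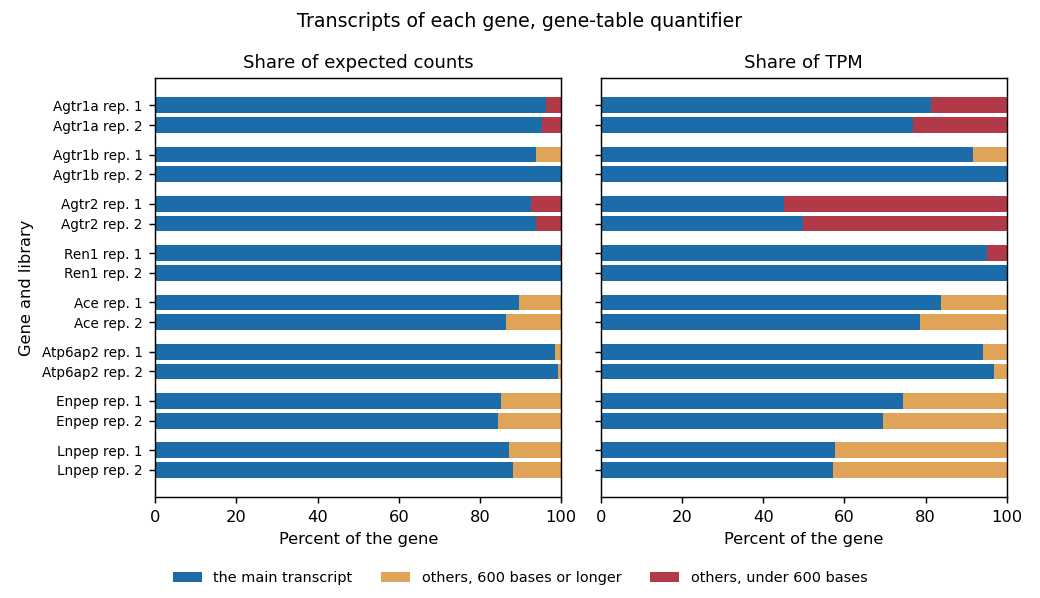
Share of each gene's expected counts (left) and of its TPM (right), in percent, held by the main transcript (blue), by other transcripts of at least 600 bases (orange) and by shorter ones (red), for the 8 detected genes and both libraries. Red is narrow on the left and wide on the right for Agtr2 (7.55% against 54.9% in replicate 1) and Agtr1a (3.84% against 18.7%).

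The same widening of short forms was seen in Agtr1a, of whose 6 transcripts 5 are under 600 bases. These 5 held 3.84% and 4.85% of its counts and 18.7% and 23.0% of its TPM, and Agtr1a-201, which carries the whole receptor, was at 104.5 and 99.4 TPM. Which of the short forms the reads belong to was poorly determined. Agtr1a-204, without a base of its own, had 24.2 and 87.9 counts with posterior SDs of 23.3 and 26.9, and 0 and 2.28 counts in the second quantifier. Agtr1a-202 was next after Agtr1a-201 in replicate 1 at 10.4 TPM, but at 8.09 TPM in replicate 2 it lay below Agtr1a-204 (9.96 TPM) and Agtr1a-203 (8.73 TPM). The second quantifier gave Agtr1a-202 10.8 and 7.60 TPM.

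Each of the 8 detected genes had the same leading transcript in both libraries, beside 84.9% of 12845 genes with several transcripts. In the second quantifier 7 of 8 did, the exception being Agtr2, beside 81.1%. In the gene-table quantifier a leading transcript with at least 60% of its gene's TPM in both libraries was found for 6 of 8, all but Agtr2 and Lnpep, beside 43.6% of the same genes. In the second quantifier it was found for 5 of 8, Enpep failing too, beside 35.1%. In the gene-table quantifier Agtr1b-201 held 91.7% and 100% of Agtr1b, Ren1-201 95.2% and 100% of Ren1, and Atp6ap2-201 94.2% and 97.0% of Atp6ap2.

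From highest to lowest mean TPM the order was Agtr1a, Lnpep, Atp6ap2, Agtr2, Enpep, Agtr1b, Ace, Ren1, Agt and Mas1. The ranges of Enpep and Agtr1b overlapped between the libraries, as did those of Agtr1b and Ace, so Agtr1b was not set in order with either neighbour. The TPM of Enpep lay above that of Ace in both libraries, but their deposited intervals overlapped in replicate 2 (5.29 to 6.90 and 4.65 to 5.95). Over the main transcripts the pair was close in replicate 2, at 4.13 and 4.06 TPM. Atp6ap2 and Agtr2 did not overlap in the gene table, but their deposited intervals overlapped in both libraries and their ranges did in the second quantifier. Ace was 2.20 and 4.38 times as high as Ren1 in TPM, and their deposited intervals overlapped in 1 library. The remaining steps were larger than the spread between the libraries, apart from that of Agt and Mas1, which rests on a few counts.

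No detected gene differed by 2-fold between the libraries: 0 of 8, beside 1.68% of the 16383 genes whose mean count reached 20, a background too low for that count to set these genes apart. Replicate 2 was lower for 5 of 8, beside 51.4% of all, and the median log2 ratio was -0.10 against -0.01 for all genes. Ratios of 4 of 8, those of Ren1, Agtr1b, Ace and Atp6ap2, lay beyond the SD from counting and dispersion, beside 24.5% of 16335 genes. With 2 libraries of 1 group the smallest two-sided p of a sign-flip test is 0.5, so no test was made, and no genes of like pattern were sought because each gene has only 1 difference.

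**Figure D3:**
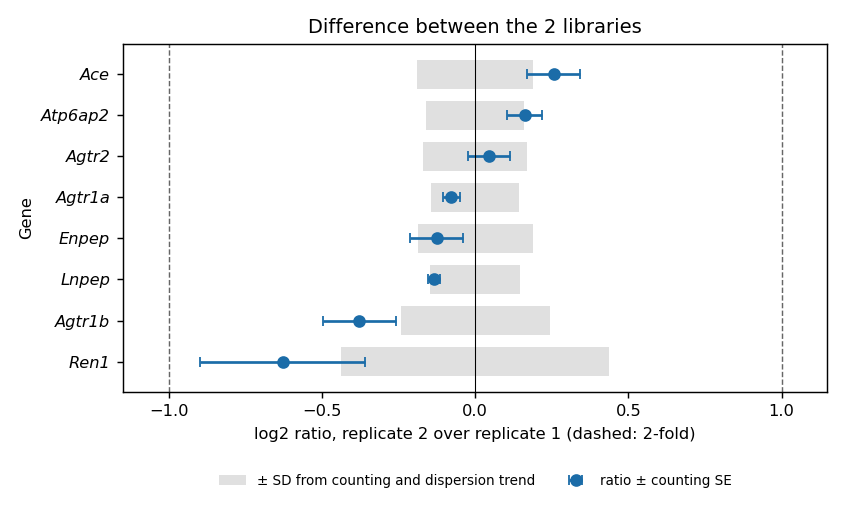
Log2 ratio of TMM-scaled counts, replicate 2 over replicate 1, for the 8 detected genes; points are ratios with their counting standard error, grey bars are ± 1 SD from counting and the edgeR dispersion trend, and dashed lines mark 2-fold. Ace lies right of its bar at 0.26, Agtr1b and Ren1 lie left of theirs at -0.38 and -0.63, and no point reaches a dashed line.

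Of 22 further genes of the pathway, mostly peptidases, 21 matched a symbol, all but Ren2. Of those 21, 15 were detected, beside 56.2% of protein-coding genes at the same limit, and the median of mean TPM over the 21 was 5.86. The lysosomal proteases led: Ctsb was at 293.9 and 293.3 TPM, Ctsd at 262.3 and 246.1 TPM, and the carboxypeptidase gene Ctsa at 54.0 and 43.0 TPM. Dpp3, which degrades angiotensin peptides, was at 45.4 and 48.4 TPM. The receptor partners stood high as well: Agtrap, whose product binds the tail of the AT1 receptor, was at 40.9 and 41.4 TPM, and Mtus1, which encodes AT2 receptor-interacting proteins, at 26.7 and 31.6 TPM. Only Ctsb and Ctsd exceeded Agtr1a.

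Ctsg, the neutrophil protease cathepsin G, and Mrgprd, a receptor for the peptide alamandine, had 0 counts in both libraries. The other 4 undetected genes, named after their values were seen, were the mast cell proteases Cma1, Mcpt4 and Cpa3 and the kallikrein Klk1, which had 2 to 38 counts a library. None of the 6 mast cell markers was detected (summed TPM of 2.65 and 2.82), but 3 of those 6 are Cma1, Mcpt4 and Cpa3 themselves. Of the 16 pathway genes with enough counts for a ratio, 8 were lower and 8 higher in replicate 2, with a median of 0.01 on the log2 scale and 0 past 2-fold.

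All 21 genes of the signalling chain below the AT1 receptor were detected, beside 56.2% of protein-coding genes, on a list chosen with earlier results known. Their median was 20.6 and 21.7 TPM. Rgs2, which shortens Gq signals, was highest at 120.9 and 100.6 TPM, close to the level of Agtr1a. The kinase gene Prkcd was at 44.0 and 56.5 TPM, the phospholipase gene Plcb1 at 49.1 and 46.8 TPM, and the calcium channel gene Itpr1 at 45.9 and 48.7 TPM. The G protein genes Gna12 and Gna11 were at 43.8 and 45.1 and at 33.7 and 35.9 TPM. Replicate 2 was lower for 7 and higher for 14, with a median of 0.02 on the log2 scale and 0 past 2-fold. Every one of these genes lay above Ren1, Agt and Mas1 except Plcb2, which at 1.25 and 1.49 TPM lay below Ren1 in replicate 1 and above it in replicate 2.

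**Figure D4:**
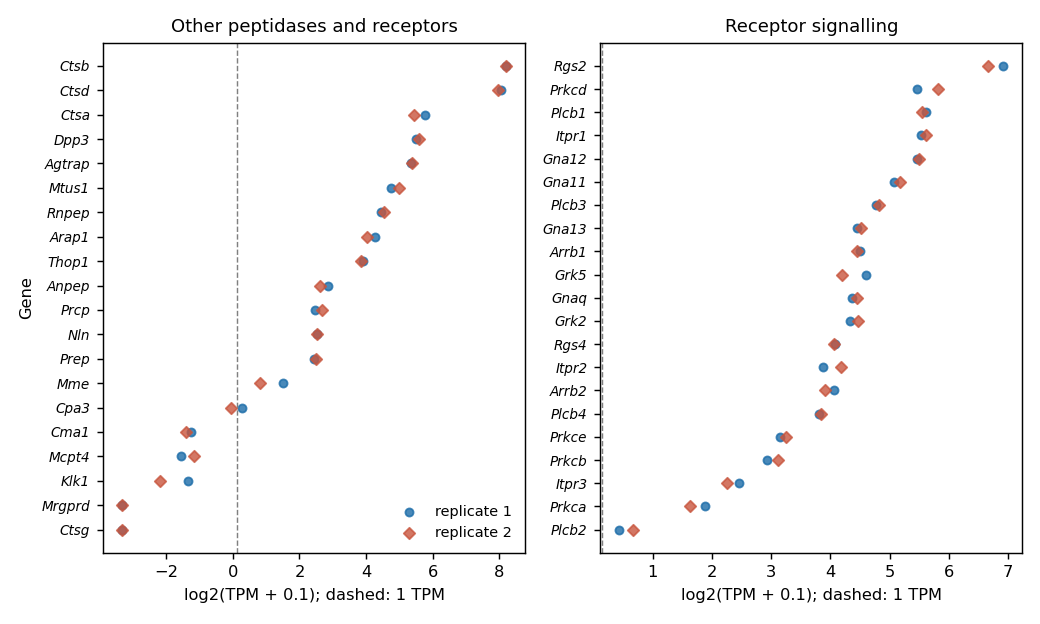
Level as log2(TPM + 0.1) of 20 of the 21 other pathway genes (left) and 21 AT1 receptor signalling genes (right), with blue circles for replicate 1, red diamonds for replicate 2 and a dashed line at 1 TPM. The left panel runs from Ctsb at about 294 TPM to Ctsg and Mrgprd at 0, and every gene on the right lies above the dashed line.

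These levels depend on what TPM is taken over. The gene tables scale TPM over all features, noncoding RNA included. Rescaled over protein-coding genes only, every level was higher, for example 351.2 TPM for Agtr1a, 134.5 for Lnpep, 55.0 for Agtr2 and 4.18 for Ren1, with ratios between genes of a library unchanged by construction. Counted over the main transcript only, chosen after seeing the data, Agtr2 was at 9.58 TPM and Lnpep at 28.3 TPM, while Agtr1a was at 101.9 TPM.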

How the data were processed

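For every gene the authors deposited expected counts, TPM and FPKM, quantified from transcriptome alignments (mm10, GENCODE M21), per the library notes. Per the file headers, the matching transcript tables give expected counts, TPM and the percent of the gene's TPM that a transcript holds. The gene tables deposited with them have an interval around TPM (a signal in TPM units, with its level not stated) and the posterior SD of a count. Another transcript table that the authors deposited, with estimated counts and TPM derived straight from reads, is called the second quantifier and was summed per gene. Which aligner and quantifier were used is not given in the sources used here. The labels describe a directional kit.

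Symbols were matched to gene identifiers through the transcript table. Library sizes left out spike-ins, phiX174 and the 26248 features with only a number as identifier. Expected counts were rounded to whole numbers. Ratios used TMM-scaled totals of edgeR 4.0.16 (factors 0.997 and 1.003) in R 4.3.3 with a prior count of 0.5, where the mean count of a gene reached 20. Their errors are Poisson counting errors, which treat reads as independent molecules and cover counting error only. The SD beside each ratio adds the edgeR dispersion trend over 17359 genes (common coefficient of variation 8.86%), itself estimated from these 2 libraries. A pseudocount of 0.1 TPM was added before the quantifiers were compared. No p-values were computed. The ratio procedure was tested on simulated counts. Other steps ran in Python 3.11.15 (Biopython 1.88, matplotlib 3.10.9, pandas 2.3.3, numpy 2.4.6, scipy 1.17.1), and DESeq2 1.42.0 gave size factors for an alternative.

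The 10 genes, the pathway, signalling and marker lists and the rules were chosen with earlier results of these data known. Named were the 10 genes, the 6 highest genes of the pathway and signalling lists with those under 0.1 TPM in both libraries, the highest markers of a list, and of each gene the leading transcripts and those whose share differed by over 20 percentage points, with other names said to be chosen later. A few genes of the lists are not reported here by name. Markers were listed for zona glomerulosa, zona fasciculata, chromaffin, endothelial, smooth muscle and pericyte, capsule and fibroblast, white adipocyte, macrophage, mast cell, kidney and liver. Alternatives were other TPM limits, FPKM, TPM over protein-coding genes, the second quantifier, other scalings and prior counts, no filter on low counts, leaving out each library and, added after seeing the data, the main (lowest-numbered) transcript only.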

Additional observations from a re-analysis of the deposited data

How the results depend on the processing

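With no filter on low counts, 1 of the 10 genes passed 2-fold between the libraries instead of 0: Mas1, with 0 and 1 counts. Of the 8 detected genes 7 remained at a limit of 2 TPM and 7 in the second quantifier, Ren1 being the one lost in both. Leaving out each library gave 8 detected genes, 15 to 16 detected pathway genes, 21 detected signalling genes and 20.7 to 27.2 for the ratio of Agtr1a to Agtr1b. No log2 ratio of a detected gene between the libraries changed direction under the alternatives run. Over the main transcript only, Agtr1b (5.215 TPM) lay above Enpep (4.305 TPM), the reverse of their order over all transcripts. Levels or ratios of single genes moved by over 1 SD in 25 of 92 cases. Among them were all 10 levels when TPM was taken over protein-coding genes. No paired analysis was possible because the libraries form 1 group. Depth limited Agt and Mas1, whose 0 to 8 counts give no usable ratio, and Ren1, whose level has wide intervals. The 2 libraries give 1 difference per gene, so the SD of each level is itself poorly known.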
